A study of Homo sapiens with 34 samples.

Results

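CCND1, CCND2 and CCND3, the D-type cyclins, and their kinase partners CDK4 and CDK6 were followed at the RNA level in 3 human B-cell acute lymphoblastic leukemia (B-ALL) lines. The 5 genes were chosen by name, whatever their values, from the 17587 genes listed in any of the 6 deposited tables, and all 5 were listed in every table. NALM-6 cells carry ETV6-PDGFRB, RS4;11 cells MLL-AF4 and BV-173 cells BCR-ABL, and RS4;11 is also called the MLL-AF4 line here. In each line, cells transduced with a lentiviral vector (pRSI12-U6-sh-UbiC-TagRFP) expressing an shRNA against CCND3 were set against cells carrying a scrambled shRNA, both being sorted for the red fluorescent marker on day 4. In each line, too, cells kept in 1 µM palbociclib for 3 days were set against cells kept in the solvent DMSO. Of the 34 libraries, each of the 12 groups had 3, but the NALM-6 group with CCND3 shRNA and the BV-173 group with DMSO had 2. The knockdown rested on 1 shRNA, so its own sequence and the loss of CCND3 cannot be told apart. Each table gave 1 level per group, pooled by the authors over the replicates, so that the spread between replicates and the depth of each library are unknown, no value has an error and no difference was tested. A gene was instead called higher or lower where its 2 levels differed at least 1.5-fold.

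D-type cyclins link growth signals to the cell cycle. Bound to CDK4 or CDK6, they phosphorylate the retinoblastoma protein RB1, which then releases E2F transcription factors to switch on the genes of DNA synthesis. The 3 cyclins are close relatives that are used differently between tissues, and CCND3 is known for its role in the expansion of early B and T lymphocytes. INK4 proteins block CDK4 and CDK6, and palbociclib occupies the ATP pocket of both kinases, whereas an shRNA removes the cyclin. The comparisons asked how loss of CCND3 and block of its kinases differ in the 3 lines, and here how the cyclins and kinases themselves stood before and after each.

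All 5 genes were placed on GRCh38.p14. CCND1 (NCBI gene 595) lies on chromosome 11 from 69641156 to 69654474 on the plus strand, and CCND2 (894) on chromosome 12 from 4273762 to 4305353 on the plus strand. CCND3 (896) lies on chromosome 6 from 41934933 to 42050035 and CDK4 (1019) on chromosome 12 from 57747727 to 57752310, both on the minus strand. CDK6 (1021) lies on chromosome 7 from 92604921 to 92836573 on the minus strand and has by far the longest transcript of the 5. The tables gave lengths of 4304 bases for CCND1, 6531 for CCND2, 2085 to 2113 for CCND3, 2020 for CDK4 and 11669 to 11687 for CDK6, and levels of different genes were compared only after division by these lengths.

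Promoter windows of 300 bases, 250 before a start site and 50 from it on, were at hand from RefSeq for 3 of the 5 genes, with 6 windows in all. They are shown because the study asked how FOXO1 controls CCND3 transcription, and because MYC and E2F factors are known regulators of D cyclins and their kinases. The words searched, chosen after these sequences had been seen, were GTAAACA for FOXO factors, CACGTG (the E-box of MYC with MAX) and TTTCGCGC and TTTGGCGC for E2F factors, each on both strands. Capitals mark a match, and no matches of different words overlapped. The first CCND3 window starts from the far upstream start site, at chr6:42048639-42048938 on the minus strand, 106880 bases from the start of the main transcript. The second is that of the main transcript, at chr6:41941759-41942058. The CDK4 and CDK6 windows belong to the main transcripts, at chr12:57752261-57752560 and chr7:92836524-92836823, both on the minus strand.
CCND3 upstream: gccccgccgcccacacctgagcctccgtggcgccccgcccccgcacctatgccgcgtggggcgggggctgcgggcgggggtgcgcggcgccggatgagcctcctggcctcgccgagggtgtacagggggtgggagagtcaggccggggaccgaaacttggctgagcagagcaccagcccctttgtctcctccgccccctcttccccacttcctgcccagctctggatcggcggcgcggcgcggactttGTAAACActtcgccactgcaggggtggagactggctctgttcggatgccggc
CCND3 main: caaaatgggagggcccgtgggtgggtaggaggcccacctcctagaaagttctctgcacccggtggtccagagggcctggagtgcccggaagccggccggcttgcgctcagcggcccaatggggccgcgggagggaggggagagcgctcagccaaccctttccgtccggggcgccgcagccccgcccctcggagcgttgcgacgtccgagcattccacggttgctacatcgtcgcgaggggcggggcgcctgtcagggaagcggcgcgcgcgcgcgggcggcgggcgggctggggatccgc
CDK4 main: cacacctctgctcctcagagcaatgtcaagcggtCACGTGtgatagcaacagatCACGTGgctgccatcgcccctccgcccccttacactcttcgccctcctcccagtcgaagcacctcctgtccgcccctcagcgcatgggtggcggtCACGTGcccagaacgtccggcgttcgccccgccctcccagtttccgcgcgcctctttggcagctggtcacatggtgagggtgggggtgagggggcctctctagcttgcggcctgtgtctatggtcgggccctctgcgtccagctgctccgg
CDK6 main: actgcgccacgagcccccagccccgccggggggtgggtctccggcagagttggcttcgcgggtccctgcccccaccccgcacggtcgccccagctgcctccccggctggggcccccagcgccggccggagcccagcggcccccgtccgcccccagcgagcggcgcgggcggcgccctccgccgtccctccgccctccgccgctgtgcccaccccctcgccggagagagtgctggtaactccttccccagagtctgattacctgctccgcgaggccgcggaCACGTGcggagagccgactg

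The upstream CCND3 window held GTAAACA once, beginning 2 bases before the start site, and the main CCND3 window held none of the 4 words. The paper places a GTAAACA motif further upstream of the CCND3 start site it used, and reports FOXO1 binding there. That start site is not one of those used here, so the positions cannot be compared. CACGTG stood at 3 places in the CDK4 window, 216, 196 and 101 bases before the start site, and at 1 place in the CDK6 window, beginning at base 31 counted from the start site as base 1. Of all 35116 promoter windows of this length, 3.42% held GTAAACA, 7.26% CACGTG, 0.515% TTTCGCGC and 0.652% TTTGGCGC. The remaining CCND3 and CDK6 windows held none of these words. A match describes letters only and shows no binding.

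The tables listed 14763 to 15944 genes each, with levels summing to between 17810468 and 20756235 per group. The median log2 ratio over all genes lay between −0.01 and 0.06 in the 6 comparisons. All 10 B-lineage markers stood at a level of at least 10 in every group, with a summed level of 57687 to 83256, although BLNK and DNTT reached only 75.1 to 138 and 75.2 to 215 in RS4;11. Summed T-cell and erythroid markers did not exceed 7.70 and 1.63, and summed myeloid markers ranged from 88.4 to 560. Summed epithelial or stromal markers, which include PDGFRB, ranged from 99.7 to 4902. Among them COL1A1 stood at 101 to 216 in RS4;11 and 22.0 to 51.3 in NALM-6. PDGFRB, the fusion partner named for NALM-6, was lowest there (74.0 to 251, against 2819 to 4680 in RS4;11), and levels per gene do not show a fusion.

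CCND3 was the dominant D cyclin in every group. Per length, it made up 99.6% of the summed D cyclin level in NALM-6 and 99.6% in RS4;11 with the scrambled shRNA and 96.8% in BV-173. With DMSO the shares were 99.9%, 99.7% and 96.4%. Only in BV-173 did another D cyclin, CCND2, pass 1% of the sum in the controls.

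The size of the CCND3 pool differed between lines more than its share did. Length-scaled levels, divided by gene length and scaled so that all genes of a group sum to 1000000 units, are given here and come from tables that were normalized separately. CCND3 stood at 1138 units with scrambled shRNA and 1453 with DMSO in NALM-6. It stood at 863 and 894 in RS4;11, and at 336 and 383 in BV-173. The order from NALM-6 over RS4;11 to BV-173 was the same in both kinds of control. On this scale CCND3 ranked 127 of 15409 genes in NALM-6 with scrambled shRNA, 154 of 15944 in the MLL-AF4 line and 370 of 14763 in BV-173.

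The second D cyclin was a different gene in RS4;11 than in the other lines. CCND2 came second in NALM-6, at 4.98 units with scrambled shRNA and 1.21 with DMSO, and in BV-173, at 11.1 and 14.0. CCND1 came second in RS4;11, at 3.30 and 2.79 units. CCND2 in RS4;11 did not exceed 0.0332 in the controls, and CCND1 did not exceed 0.0707 in those of NALM-6 or 0.123 in those of BV-173. These last 3 rest on deposited levels of under 5 in each control group, so a fold between them describes a few units. CCND3 exceeded the second D cyclin 229-fold in NALM-6, 262-fold in the MLL-AF4 line and 30.3-fold in BV-173 with scrambled shRNA, and 1204-fold, 320-fold and 27.3-fold with DMSO.

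The leading kinase also depended on the line. CDK4 differed little between lines in the controls, from 187 to 264 units. CDK6 ranged further, at 98.0 and 78.1 units in NALM-6, 248 and 259 in the MLL-AF4 line and 31.4 and 47.0 in BV-173, each with scrambled shRNA first and DMSO second. CDK6 over CDK4 was accordingly 0.371 and 0.325 in NALM-6, 1.33 and 1.28 in the MLL-AF4 line and 0.129 and 0.198 in BV-173. Per length, then, CDK4 led in NALM-6 and BV-173 and CDK6 led in RS4;11. The division by length carries this order, because CDK6 transcripts are long: on undivided levels the ratio was 2.15 and 1.88 in NALM-6 and 0.748 and 1.14 in BV-173.

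**Figure D1:**
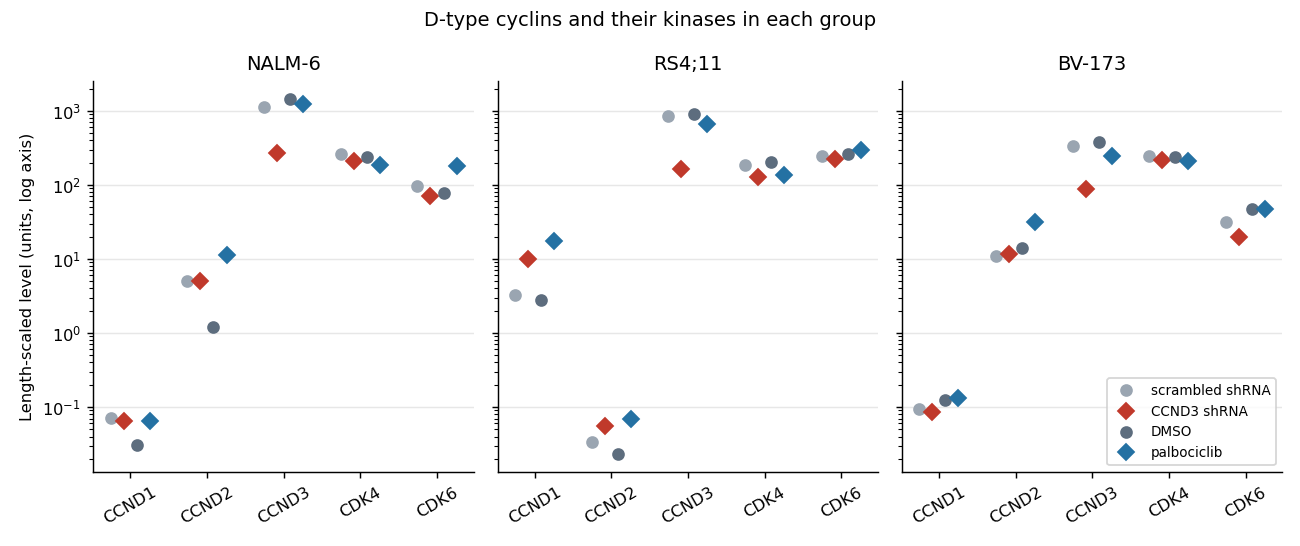
Length-scaled level in units (log axis, all genes of a group sum to 1000000) of the 5 genes in the 12 groups, 1 panel per line, with 1 point per group (circles for controls, diamonds for treated cells) and no error bars because the tables hold 1 level per group. CCND3 is the highest D cyclin in all 12 groups, CCND2 is second in NALM-6 and BV-173 and CCND1 is second in RS4;11. Levels in different tables were normalized separately.

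The shRNA lowered its target in every line, which checks the labels. The CCND3 level went from 19499 with scrambled shRNA to 4727 with CCND3 shRNA in NALM-6, which is 24.2% of the control (log2 ratio −2.04). It went from 16178 to 3353 in RS4;11, or 20.7% (−2.27), and from 6619 to 2060 in BV-173, or 31.1% (−1.68). Only 4 genes in NALM-6, 7 in the MLL-AF4 line and 2 in BV-173 had a lower ratio than CCND3. The mean log2 ratio over the lines was −2.00 (SD over lines 0.30, n = 3), and since an exact sign-flip test over 3 lines cannot give a p below 0.25, none was run. In these bulk libraries, less CCND3 RNA in each cell and fewer cells with the RNA cannot be told apart.

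The CCND3 left after knockdown was still abundant. In length-scaled units it stood at 269 in NALM-6, 164 in the MLL-AF4 line and 87.9 in BV-173. NALM-6 cells with the shRNA thus held a CCND3 level not far under that of BV-173 controls (336 and 383), on tables normalized separately. CCND3 also kept the largest share of the D cyclins, at 98.2%, 94.3% and 88.3% in the 3 lines in the same order.

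Of the other 4 genes, CCND1 in RS4;11 changed most after knockdown. Its level went from 126 to 410, which is 3.26-fold higher (log2 ratio 1.70), and only 101 of 15944 genes had a higher ratio. In the other lines CCND1 stayed under 5 in both groups, at 2.47 and 2.34 in NALM-6 and at 3.82 and 4.13 in BV-173. CCND2, the second D cyclin in those lines, went from 264 to 270 in NALM-6 (log2 ratio 0.03) and from 681 to 841 in BV-173 (0.31), both short of 1.5-fold. In RS4;11 CCND2 passed 1.5-fold (1.80), on levels of only 1.93 and 3.48.

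Neither kinase passed 1.5-fold after CCND3 knockdown on the deposited levels. In length-scaled units CDK6 in BV-173 did, at 31.4 with scrambled shRNA and 19.9 with CCND3 shRNA. CDK4, the partner with the shorter transcript, went from 4325 to 3514 in NALM-6 (81.2% of control), from 3344 to 2459 in the MLL-AF4 line (73.5%) and from 4617 to 4840 in BV-173 (log2 ratio 0.07, but −0.03 after division by the group sum). CDK6 went from 9283 to 6793 in NALM-6 (73.2%), from 25688 to 24931 in the MLL-AF4 line (97.1%) and from 3455 to 2605 in BV-173 (75.4%). The 2 kinases did not follow the same order of lines: CDK6 was nearest to its control in RS4;11 and CDK4 in BV-173.

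Counted together, 1 of the 5 genes was called in NALM-6 after knockdown, beside 16.3% of all genes tested. In RS4;11 it was 3 of 5, beside 19.4%, and in BV-173 1 of 5, beside 8.09%. CCND3 was the gene called in all 3 lines, and CCND1 and CCND2 were the additional calls in RS4;11. With genes under a level of 10 in both groups left out, a filter chosen after seeing the data, the counts were 1, 2 and 1, beside 19.2%, 22.1% and 9.62% of the genes so filtered. Over all genes, 7.82%, 9.73% and 3.32% were called higher and 8.47%, 9.72% and 4.78% lower in the 3 lines. Of the 5 genes, 1 was called lower in each line. That gene was CCND3, the target of the shRNA, so its call came with the design. None of the others was called lower in any line.

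With palbociclib, CCND2 was higher in NALM-6 and BV-173 and CCND1 in RS4;11, all past 1.5-fold. CCND2 in NALM-6 went from 72.9 with DMSO to 632, 8.68-fold higher (log2 ratio 3.12), with 66 of 15614 genes above it. In BV-173, where CCND2 was already the highest of the 3 lines, it went from 853 to 2257, 2.64-fold higher (1.40), with 305 of 14797 genes above it. CCND1 in RS4;11 went from 112 to 787, 7.01-fold higher (2.81), with 54 of 15857 genes above it. In each line this was the D cyclin that came second before treatment. The third D cyclin of each line stood at no more than 6.25 with DMSO or palbociclib. The values therefore do not show whether the rise was particular to the second.

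The remaining CCND1 and CCND2 values with palbociclib rest on low levels. CCND2 in RS4;11 went from 1.40 to 4.69 and CCND1 in NALM-6 from 1.23 to 2.37, past 1.5-fold in both cases, and CCND1 in BV-173 from 4.93 to 6.25, short of it. The NALM-6 value for CCND2 also depends on its control: in length-scaled units, CCND2 stood at 1.21 with DMSO but at 4.98 with scrambled shRNA, 4.13 times as high, against 11.3 with palbociclib. The 2 controls differ in vector, sorting and day and come from separately normalized tables, and the part of these in the difference was not tested.

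CCND3 was lower with palbociclib in all 3 lines, without reaching 1.5-fold in any on the deposited levels. Its level went from 28149 to 21960 in NALM-6 (78.0% of control), from 17431 to 14267 in the MLL-AF4 line (81.8%) and from 7466 to 5674 in BV-173 (76.0%). The mean log2 ratio was −0.35 (SD over lines 0.05, n = 3), on these levels the narrowest spread over lines of the 5 genes under either treatment. In length-scaled units the 3 lines were less alike. There CCND3 went from 1453 to 1226 in NALM-6, from 894 to 658 in the MLL-AF4 line and from 383 to 247 in BV-173. The change in BV-173 was past 1.5-fold in these units. Of all genes in a table, 19.0% to 27.7% had a lower ratio than CCND3.

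On the deposited levels, CDK6 with palbociclib was above its control in all 3 lines and CDK4 below it in 2. In length-scaled units BV-173 differed, with CDK6 at 47.0 with DMSO and 46.8 with palbociclib, and CDK4 at 238 and 210. CDK6 went from 8431 to 17989 in NALM-6, 2.13-fold higher (log2 ratio 1.09), from 28227 to 35593 in the MLL-AF4 line, 1.26-fold (0.33), and from 5117 to 6016 in BV-173, 1.18-fold (0.23). CDK4 went from 4494 to 3182 in NALM-6 (70.8% of control), from 3806 to 2841 in the MLL-AF4 line (74.6%) and from 4474 to 4663 in BV-173 (log2 ratio 0.06, but −0.0031 after division by the group sum). CDK6 in NALM-6 was the single kinase value past 1.5-fold on the deposited levels in the 6 comparisons. Of the 5 genes, 3 were called with palbociclib in NALM-6, beside 36.3% of all genes, 2 in the MLL-AF4 line, beside 31.7%, and 1 in BV-173, beside 25.5%. All these calls were toward higher levels, a direction called for 21.4%, 16.7% and 13.6% of all genes in the 3 lines, against 14.9%, 15% and 11.9% for lower levels. With genes under a level of 10 in both groups left out, the counts were 2, 1 and 1, beside 37.4%, 33.6% and 29.3%.

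**Figure D2:**
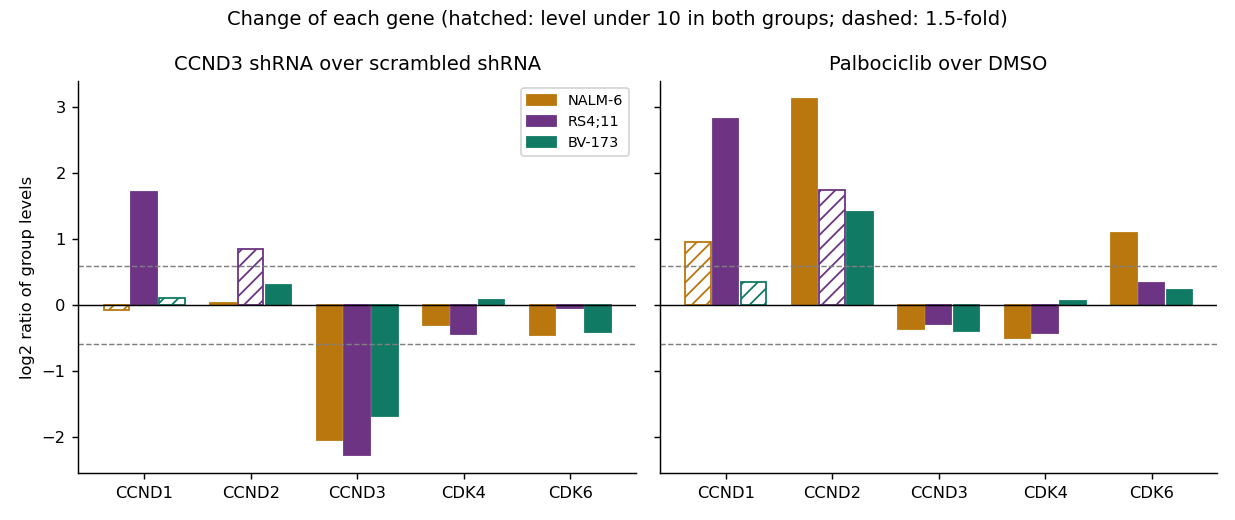
Log2 ratio of the 2 group levels (y axis) for each gene and line, for CCND3 shRNA over scrambled shRNA (left) and palbociclib over DMSO (right), 1 bar per table with no error bars. CCND3 is lowest after knockdown (−1.68 to −2.27), and the tallest filled bars with palbociclib are CCND2 in NALM-6 (3.12) and CCND1 in RS4;11 (2.81). Hatched bars rest on levels under 10 in both groups.

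CCND1 and CCND2 made up a larger share of the D cyclin pool under both treatments in all 3 lines. Together they made up 0.442% of the pool in NALM-6 with scrambled shRNA and 1.84% with CCND3 shRNA, 0.384% and 5.69% in the MLL-AF4 line, and 3.22% and 11.7% in BV-173. With palbociclib the share went from 0.0851% to 0.920% in NALM-6, from 0.314% to 2.61% in the MLL-AF4 line and from 3.56% to 11.3% in BV-173. These shares are taken within a group and do not depend on how a table was scaled. A fall of CCND3 by itself raises them. After knockdown in NALM-6, CCND2 went only from 264 to 270 and CCND1 from 2.47 to 2.34.

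The gain in CCND1 and CCND2 was small beside the loss of CCND3. Per kilobase of transcript, their summed gain after knockdown came to 0.0129% of the CCND3 loss in NALM-6, 1.09% in the MLL-AF4 line and 1.13% in BV-173. With palbociclib it came to 2.91%, 10.4% and 25.1% in the same order. The summed D cyclin level was left at 24.6%, 21.9% and 34.1% of control after knockdown and at 78.7%, 83.8% and 82.7% with palbociclib. All these percentages rest on the deposited levels and depend on the scaling. In length-scaled units CCND2 in BV-173 went only from 11.1 to 11.5 after knockdown. With palbociclib the summed D cyclins went from 1454 to 1237 in NALM-6, from 897 to 675 in the MLL-AF4 line and from 398 to 278 in BV-173. RNA levels do not give the amounts of protein or of complexes.

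Divided by length, summed D cyclin RNA exceeded summed kinase RNA in every control group. Their ratio stood at 3.16 in NALM-6, 1.99 in the MLL-AF4 line and 1.27 in BV-173 with scrambled shRNA. After CCND3 knockdown the ratio was 0.982, 0.502 and 0.425, under 1 in all 3 lines. With palbociclib it went from 4.56 to 3.40, from 1.95 to 1.58 and from 1.40 to 1.08, all above 1. The division by length carries the excess in 2 of the lines: on undivided levels, a setting chosen after seeing the data, the control ratios were 1.45 and 2.18 in NALM-6, 0.562 and 0.548 in the MLL-AF4 line and 0.905 and 0.868 in BV-173, with scrambled shRNA first. With the longest transcript as the length, the BV-173 value with palbociclib was 0.896. The lowest pairings per length after knockdown were CCND3 over CDK6 in RS4;11 (0.744) and CCND3 over CDK4 in BV-173 (0.410), in each case against the kinase that led in that line.

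As a fold, CDK6 over CDK4 changed most in NALM-6 with palbociclib, from 0.325 to 0.978, near parity. In RS4;11 it went from 1.28 to 2.17 with palbociclib and from 1.33 to 1.76 after knockdown. In BV-173 it went from 0.198 to 0.223 and from 0.129 to 0.0930, so that CDK4 stayed far ahead. After knockdown in NALM-6 it was 0.334 against 0.371. Per length, no treatment changed which kinase led in a line.

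**Figure D3:**
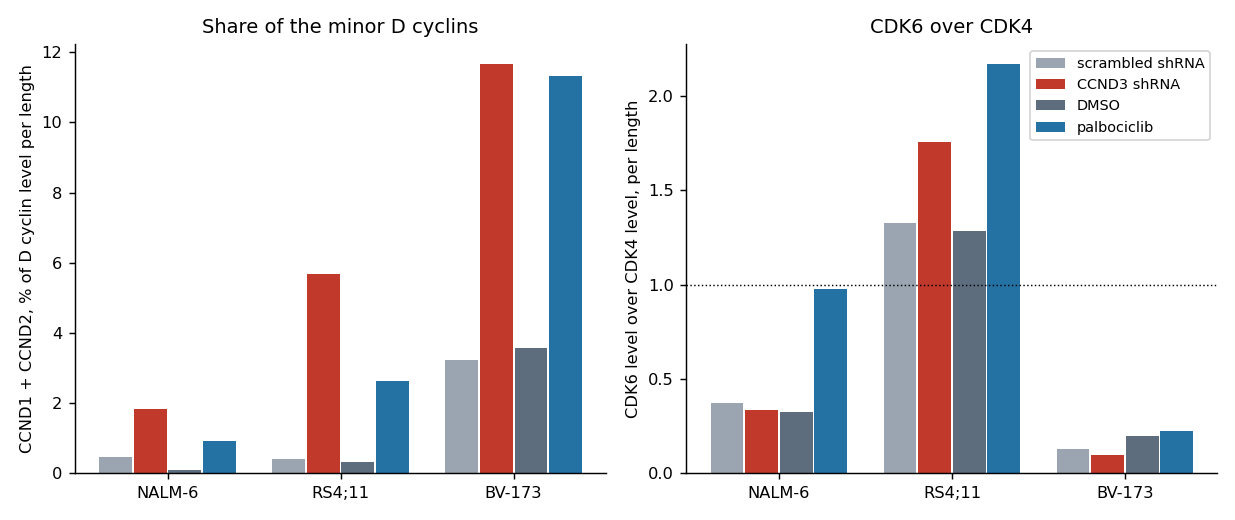
CCND1 plus CCND2 as a percent of the summed D cyclin level per length (left) and CDK6 over CDK4 per length (right, dotted line at 1) in each line, 1 bar per group with no error bars. The minor cyclins reach 11.7% and 11.3% in BV-173, and CDK6 over CDK4 goes from 0.325 to 0.978 in NALM-6 with palbociclib while exceeding 1 in RS4;11 in all 4 groups.

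Across the 6 ratios, the likeness of each gene to others was measured by Euclidean distance, over 10194 genes with a level of at least 10 in all 12 groups. CDK4 had the closest neighbours, STIP1 at 0.133 and MAP2K1 at 0.138. CDK6 was nearest to CERK (0.399), VGLL4 (0.401) and SLC23A1 (0.461). CCND2 was nearest to SCML4 (0.454), BAIAP3 (0.817) and SCAMP5 (0.922).

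CCND1 and CCND3 had no near neighbours by comparison. CCND1 was nearest to AFF3 (1.01), FCRLA (1.08) and GABARAPL1 (1.09), and CCND3 to GFPT1 (1.31), PRDX3 (1.36) and ACBD7 (1.68). Ranked by Pearson correlation instead, which ignores the size of a change, none of the 3 nearest genes was kept for any of the 5 (0 of 3 each). Among the 5 genes, CCND2 and CDK6 had the most similar shape, with r = 0.997 over the 6 ratios and 0.992 over 5 without palbociclib in NALM-6. The 6 ratios share lines and, in part, low levels, and r is a description only.

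The INK4 and CIP/KIP genes, which code for inhibitors and binding partners of these kinases, were mostly level or lower. CDKN2C, the INK4 gene with the highest control levels, went from 1629 to 833 after knockdown in NALM-6 (log2 ratio −0.97) and from 1574 to 308 with palbociclib (−2.35). In RS4;11 it differed by −0.44 and −0.16, and in BV-173 by −0.58 and −2.45, on the log2 scale with knockdown first. CDKN2A, which codes for p16, stayed under 3 wherever it was listed. INK4 genes were lower in 2 of 3, 1 of 3 and 0 of 3 listed after knockdown, in the same order of lines, and in 1 of 2, 0 of 2 and 2 of 4 with palbociclib, and none was called higher. Of all genes, 8.47%, 9.72% and 4.78% were lower after knockdown and 14.9%, 15% and 11.9% with palbociclib. CDKN1A, which codes for p21, was lower after knockdown in RS4;11 (−0.78) and with palbociclib in NALM-6 (−1.36), and CDKN1B, which codes for p27, in NALM-6 under both treatments (−0.62 and −1.29) and in BV-173 with palbociclib (−0.61). CIP/KIP genes were lower in 1, 1 and 0 of 3 after knockdown and in 2, 1 and 2 of 3 with palbociclib, and none was called higher.

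Downstream of the kinases, the listed genes covered the pocket proteins and the E2F arm, and were chosen with earlier results known. RB1, the substrate itself, was near its control after knockdown (log2 ratio −0.02, −0.11 and −0.20) and was called in 1 comparison, palbociclib in BV-173, where it went from 5929 to 3429 (−0.79). Of the 3 pocket protein genes, RBL1 was lower in all 6 comparisons and RBL2 in none. E2F1, an activator that is itself an E2F target, differed by −1.24, −2.22 and −0.62 after knockdown and by −2.46, −4.06 and −1.69 with palbociclib. Of the 10 E2F and DP genes, 4, 6 and 4 were lower after knockdown and 5, 6 and 4 with palbociclib, while 1, 0 and 0 and then 2, 0 and 1 were higher. Beside them stand the shares of all genes called lower, 8.47%, 9.72% and 4.78% after knockdown and 14.9%, 15% and 11.9% with palbociclib, and higher, 7.82%, 9.73% and 3.32% and then 21.4%, 16.7% and 13.6%. E2F1, E2F2, E2F7 and E2F8 were lower in all 6 comparisons. The repressors E2F7 and E2F8 had the smallest mean ratios of all listed genes after knockdown (−1.73 and −1.51), and E2F8 and the S-phase cyclin CCNA2 with palbociclib (−3.97 and −3.79). E2F5 had the largest mean ratio after knockdown (0.65), followed by FBXO31 (0.47), which codes for a ubiquitin ligase subunit.

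After knockdown, 10 of the 10 S-phase targets of E2F were lower in NALM-6 and in RS4;11, but 1 of 10 in BV-173. Their median log2 ratios were −1.10, −1.78 and −0.50 in the 3 lines, the last short of 1.5-fold. With palbociclib they were lower in 10 of 10 in every line, with medians of −2.18, −2.95 and −1.49. The medians over all genes were 0.01, 0.01 and −0.01 after knockdown and 0.06, 0.01 and 0.04 with palbociclib. Cyclins E and A with CDK2 were lower in 3 of 4, 5 of 5 and 2 of 5 after knockdown and in 3 of 4, 4 of 5 and 3 of 5 with palbociclib. Of all genes, 8.47%, 9.72% and 4.78% were called lower after knockdown and 14.9%, 15% and 11.9% with palbociclib. In all 3 lines the medians of the E2F targets were lower with palbociclib than after knockdown, although the D cyclin level itself was reduced far more by the shRNA, and that difference was not tested.

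On the input side, the calls differed between lines, and stand beside 16.3%, 19.4% and 8.09% of all genes called in either direction after knockdown and 36.3%, 31.7% and 25.5% with palbociclib. Of the 5 turnover genes, 2, 0 and 0 were higher after knockdown and 1, 0 and 0 with palbociclib, while 1, 1 and 0 were lower with palbociclib. Of the 5 folding and activation genes, which include CDC37 and the CDK-activating kinase, none was called after knockdown, and with palbociclib 1 was lower in NALM-6, 0 were called in the MLL-AF4 line and 1 was higher and 1 lower in BV-173. FOXO1 differed by 0.26, 0.81 and −0.09 after knockdown and by −0.18, 0.07 and −0.90 with palbociclib. MYC differed by 0.10, 0.01 and 0.60 and by 0.06, 0.28 and 0.42. Of the 9 upstream transcription factors, 1 was lower in NALM-6, 1 higher in the MLL-AF4 line and 2 higher and 1 lower in BV-173 after knockdown. With palbociclib 0 were called in NALM-6 and RS4;11, and 1 was higher and 3 were lower in BV-173. BCL6, a transcriptional repressor, had among the largest mean ratios with palbociclib (0.80), which came from BV-173 (313 to 1455), and TFDP2, an E2F partner, the largest (0.98).

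**Figure D4:**
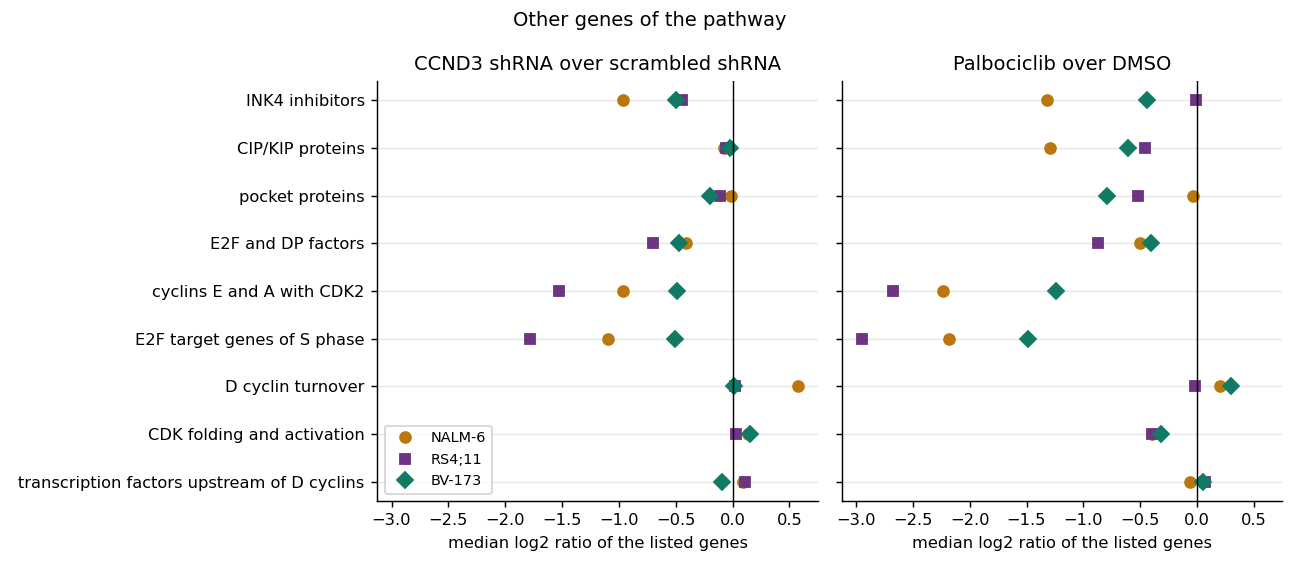
Median log2 ratio (x axis) of the listed genes of 9 pathway groups (y axis) for each line, after CCND3 knockdown (left) and with palbociclib (right), 1 point per table. The medians of the E2F targets are the lowest in RS4;11 (−1.78 and −2.95), and those of the upstream transcription factors stay near 0.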

How the data were processed

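The authors filtered reads with SOAPnuke and, per the labels and the processing notes, used Bowtie2, RSEM, DESeq2 and the hg38 build. Versions are not given in the sources used here. For each comparison they deposited a table with a level (unit: signal) per gene and group, scaled within the pair of groups, pooled over replicates and not divided by length. The tables also hold the authors' fold changes, p-values and calls, which were not used. No value per replicate was at hand, so no test, error or depth could be computed.

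Log2 ratios were taken from the 2 levels of a table (python 3.11.15, pandas 2.3.3, numpy 2.4.6), with no pseudocount and no filter on low levels. A gene was called at a fold of at least 1.5 in either direction. Levels were divided by the table's gene length and, across tables, scaled to a sum of 1000000 per group. The scripts were tested on simulated data. Named genes were the 5 genes, RB1, E2F1, CDKN2A, CDKN2C, CDKN1A, CDKN1B, FOXO1 and MYC, the 2 listed genes with the largest and the 2 with the smallest mean ratio per treatment, and the 3 nearest neighbours of each of the 5 genes. Further genes of the lists were named after their values were seen. Results for some genes under these rules are not reported here. The 5 genes, the 9 lists (54 genes) and 27 markers were chosen with earlier results of these data known. Promoter sequences are from RefSeq on GRCh38.p14, and transcript lengths for the alternative from GENCODE 44.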

Additional observations from a re-analysis of the deposited data

Results flagged for a closer look

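BCL6, a transcriptional repressor listed among the factors upstream of the D cyclins, moved past 1.5-fold in opposite directions after CCND3 knockdown in different lines. Its log2 ratio was −1.96 in NALM-6, from 1043 to 269, and 0.73 in BV-173, from 798 to 1322. The difference between the lines was not tested. The scrambled control of NALM-6 stood at 1043 and its DMSO control at 293, in tables normalized separately.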

How the results depend on the processing

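No paired analysis was possible because the tables hold 1 value per group, and for the same reason single replicates could not be left out, nor counts, TMM or a replicate test used. All 30 log2 ratios of the 5 genes kept their side of 1.5-fold with a pseudocount of 1, with the median of all genes removed and with levels divided by the group sum, and 28 kept their direction. The other 2, of CDK4 in BV-173, turned to −0.03 after knockdown and −0.0031 with palbociclib after division by the group sum. These scalings shifted a ratio by at most 0.13 and the pseudocount by at most 0.50, in CCND2 with palbociclib in RS4;11. Length-scaled units were not among these settings, and on them some values in BV-173 crossed 1.5-fold. These were CDK6 after knockdown (31.4 to 19.9) and CCND3 with palbociclib (383 to 247). CDK6 over CDK4 depended on the division by length: undivided it was 2.15 with scrambled shRNA, 1.93 with CCND3 shRNA, 1.88 with DMSO and 5.65 with palbociclib in NALM-6, 7.68, 10.1, 7.42 and 12.5 in RS4;11, and 0.748, 0.538, 1.14 and 1.29 in BV-173. Summed D cyclins over kinases, undivided (a setting chosen after seeing the data), was 1.45, 0.485, 2.18 and 1.07 in NALM-6 in the same order of groups, 0.562, 0.138, 0.548 and 0.392 in RS4;11, and 0.868 with DMSO in BV-173. CCND3 led the D cyclins in all 12 groups also without length, with the lowest share at 70.9% (BV-173 with CCND3 shRNA, 88.3% per length), and the longest transcript in place of the table's length changed no leading kinase. At a lower limit of 0.32 on the log2 scale, the called genes after knockdown numbered 2 in NALM-6, 4 in RS4;11 and 2 in the BCR-ABL line. Beside them stand 36.8%, 40.8% and 29.1% of all genes. With palbociclib they numbered 5, 4 and 3 in the same order, beside 58.2%, 54.5% and 48.6%. At a fold of 2 all 6 counts stayed within 1.5 times. They were 1, 2 and 1 after knockdown, beside 5.35%, 7.06% and 0.935% of all genes. With palbociclib they were 2, 2 and 1, beside 18.3%, 14.2% and 9.75%. A minimum level of 10, chosen after seeing the data, left 1 called gene in RS4;11 with palbociclib, beside 33.6% of the genes so filtered. Leaving out a line changed the mean of CCND1 after knockdown from 0.58 to 0.91 without NALM-6, 0.02 without RS4;11 and 0.81 without BV-173, and that of CDK6 with palbociclib from 0.55 to 0.28, 0.66 and 0.71 in the same order.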
